A study of Mus musculus with 12 samples.

Results

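The genes described here are 3 receptors and 6 ligands of the epidermal growth factor (EGF) family: *Egfr*, *Erbb2*, *Erbb3*, *Areg*, *Hbegf*, *Ereg*, *Tgfa*, *Btc* and *Epgn*. They were taken by gene symbol from a table of 21947 counted loci, and all 9 were found and passed the filter on low counts, as did 13562 loci in all. RNA-Seq was performed on primary keratinocytes of neonatal BALB/c mice, the cells that build the epidermis, grown in 0.05 mM calcium and moved to 0.12 mM calcium to start differentiation. Batch 1 held 2 libraries without siRNA, 2 libraries that received a non-targeting siRNA pool (siControl) and 2 that received a siRNA pool against *Sbsn*, which encodes the secreted epidermal protein suprabasin (siSbsn), and batch 2 held 3 siControl and 3 siSbsn libraries. Both siRNAs were used at 75 pmol and RNA was taken 48 hours after transfection. Beside the batch number, the labels give nothing that sets the batches apart, and they do not say whether replicates are separate cultures, so p-values measure only the spread between these libraries.

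ErbB receptors are tyrosine kinases that sit in the cell membrane and act as pairs. EGFR binds all 6 of the ligands described here, ERBB2 binds no known ligand and serves as the preferred partner of the other receptors, and ERBB3 binds neuregulins and has little kinase activity of its own. The ligands are made as membrane-anchored precursors that proteases release, and keratinocytes use them on themselves to drive proliferation, migration and wound closure.

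Total counts per library ranged from 27934836 to 49553923, and the smallest member count was 47, for *Btc* in 1 batch 2 library. *Sbsn* itself fell with siSbsn in batch 2, from 332 to 459 CPM (counts scaled to the size of the library) in siControl to 121 to 125 CPM (log2-fold change -1.64, SE 0.10, edgeR q-value = 0.000560). In batch 1 it stood at 1965 and 696 CPM in the siSbsn libraries and at 1189 and 1356 CPM in siControl, so the library labelled siSbsn batch 1 replicate 1 goes against its label, and a direction drawn from it carries that limit. In siControl batch 1 replicate 1 the levels followed gene length: the slope of its log2 level, relative to the 12 libraries, on log2 transcript length was -0.44, against -0.11 to 0.13 in the other libraries. Values are therefore also given with this length trend removed or without these 2 libraries where that changed a call or a direction. Of the markers of basal keratinocytes (*Krt5*, *Krt14* and 5 others), the summed level was 18121 to 48277 CPM in all libraries, so markers of the labelled cell type were present. Most of that sum came from *Krt5* and *Krt14*, and *Krt15* of the same list stood at only 0.36 to 1.90 CPM. Summed markers of melanocytes reached 742 to 1091 CPM and of fibroblasts 361 to 1170 CPM, whereas 8 markers of immune cells summed to 2.37 to 14.1 CPM, with *Cd207* at 0 counts, those of endothelial cells to 9.04 to 27.8 CPM and those of muscle to 1.24 to 5.51 CPM.

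The receptors lie on chromosomes 10 and 11 (mm10). *Egfr* spans chr11:16752203-16913907 on the plus strand, with 28 exons in its longest transcript. *Erbb2* was counted together with *Mien1* as chr11:98412484-98438988, and its reads cannot be told from those of its neighbour. *Erbb3* spans chr10:128569368-128589501 on the minus strand. Of the ligands, 4 lie side by side within 375.5 kb on chromosome 5, in the order *Epgn*, *Ereg*, *Areg* and *Btc*, and *Ereg* was counted with the transcript AK019057. *Tgfa* spans chr6:86195227-86275743.

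The promoters of 3 of the chromosome 5 ligands are shown because, of these separately counted neighbours, *Areg* and *Btc* passed the test between the batches and *Epgn* did not. The bases upstream of each RefSeq start (GRCm38.p6) are given 5′ to 3′ on the strand of the gene, and capitals mark a TATA box (TATAAA) or a cAMP response element (TGACGTCA).
*Epgn*, chr5:91027267-91027463, plus strand: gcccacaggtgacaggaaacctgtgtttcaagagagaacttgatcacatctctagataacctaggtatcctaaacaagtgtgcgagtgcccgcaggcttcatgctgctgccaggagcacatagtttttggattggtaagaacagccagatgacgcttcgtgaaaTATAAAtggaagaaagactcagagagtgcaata
*Areg*, chr5:91139349-91139598, plus strand: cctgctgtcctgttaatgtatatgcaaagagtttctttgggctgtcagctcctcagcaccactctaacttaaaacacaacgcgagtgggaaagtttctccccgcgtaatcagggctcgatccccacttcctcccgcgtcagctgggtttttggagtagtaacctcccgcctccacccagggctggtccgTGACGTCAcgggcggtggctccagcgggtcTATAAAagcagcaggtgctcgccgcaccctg
*Btc*, chr5:91402995-91403244, minus strand: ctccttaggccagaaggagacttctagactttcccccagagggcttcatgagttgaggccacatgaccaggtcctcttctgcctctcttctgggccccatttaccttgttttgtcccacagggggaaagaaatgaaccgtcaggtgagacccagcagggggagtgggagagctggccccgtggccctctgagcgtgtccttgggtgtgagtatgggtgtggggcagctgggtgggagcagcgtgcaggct
The window of *Epgn* stops at 197 bases, where an annotated exon begins. In *Areg* the cAMP response element starts 61 bases and the TATA box 31 bases before the transcription start, and in *Epgn* the TATA box starts 33 bases before the GENCODE start. The *Btc* window held neither on either strand. Of 32536 RefSeq windows of 250 bases, 1.56% hold TGACGTCA and 12.31% hold TATAAA on either strand. An AP-1 element (TGANTCA), which 6.73% of the windows hold, was in none of the 6 members found in the RefSeq table, namely these 3, *Tgfa*, *Egfr* and *Erbb2*. The 3 motifs do not overlap each other in these windows, and a match is a description of letters only. The cAMP response element and the TATA box were chosen for the search after the sequences had been seen.

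To compare genes with each other, levels were divided by the length of the longest annotated transcript (CPM per kb). In batch 1 *Erbb2*, with its joined neighbour, stood highest at a mean of 48.3 CPM per kb over 6 libraries, followed by *Epgn* at 45.3 and *Egfr* at 32.6. *Tgfa* (19.9) and *Erbb3* (19.1) came next, then *Hbegf* (13.5), *Ereg* (12.5) and *Areg* (10.8), with *Btc* last at 2.37 CPM per kb. Each pair of neighbours in that order overlapped between libraries except *Areg* and *Btc*. In batch 2 the order was *Egfr* (48.3), *Epgn* (40.4), *Erbb2* (31.9), *Erbb3* (19.9), *Tgfa* (7.97), *Ereg* (5.80), *Hbegf* (5.49), *Areg* (4.09) and *Btc* (0.433 CPM per kb), and the overlapping neighbours were *Egfr* with *Epgn*, *Ereg* with *Hbegf* and *Hbegf* with *Areg*. With the length of the union of exons in its place, *Hbegf* (8.07 and 3.28 CPM per kb) came below *Areg* in both batches, and *Tgfa* (13.9 and 5.56) below *Erbb3* in batch 1 and below *Ereg* in batch 2.

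The other members of the family ranged from near 0 to 63 CPM. *Erbb4*, the fourth receptor, had 1 to 14 counts per library, and *Egf*, the ligand that names the family, ranged from 0.144 to 0.622 CPM. Of the neuregulins, the ligands of ERBB3 and ERBB4, *Nrg1* was measured at 15 to 37 CPM and *Nrg4*, which was counted together with *Fbxo22*, at 44 to 63 CPM. *Nrg3* was too low to be tested.

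**Figure D1:**
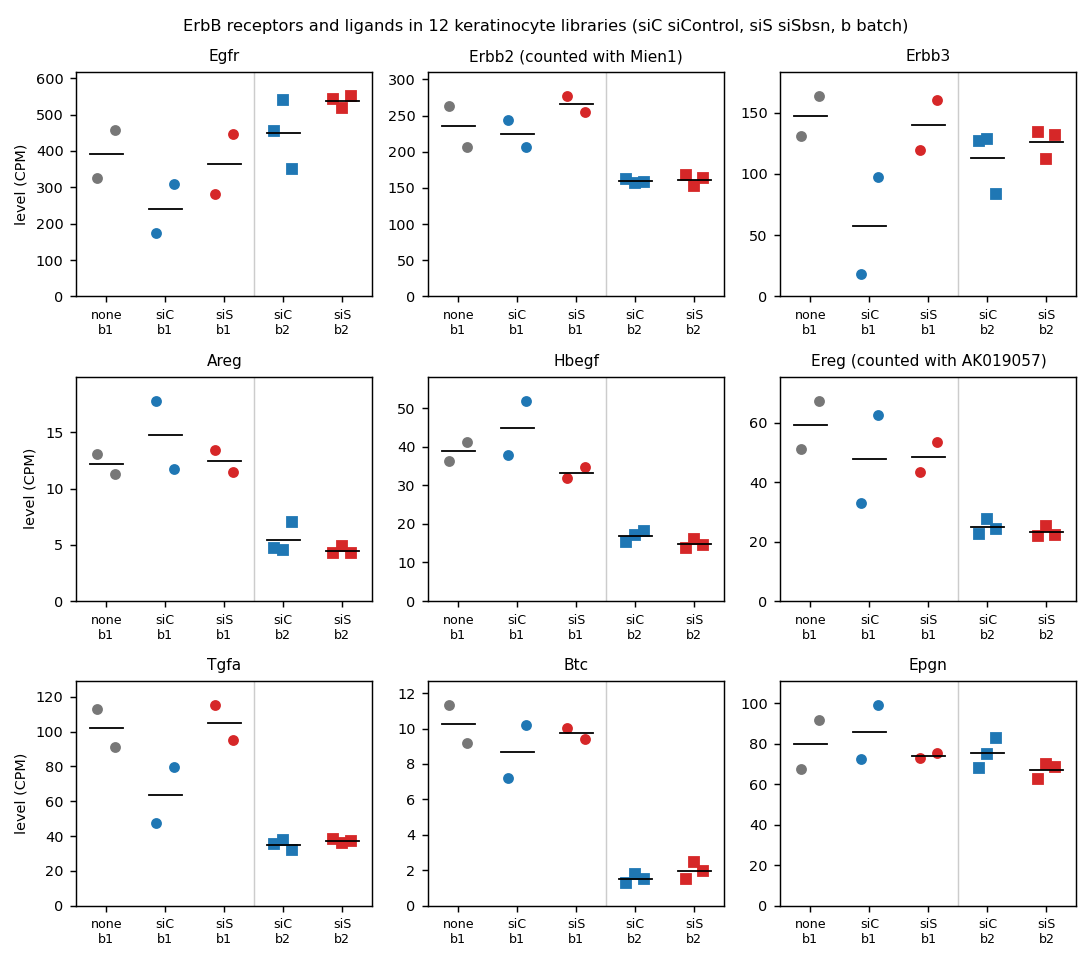
Level in CPM (vertical axes, starting at 0) of the 3 receptors and 6 ligands in each of 12 libraries, by treatment (none, siControl, siSbsn) and batch (b1, circles, and b2, squares). Horizontal lines are group means. *Areg*, *Hbegf*, *Ereg*, *Tgfa*, *Btc* and *Erbb2* sit lower in every batch 2 library than in any batch 1 library, and *Erbb3* in siControl batch 1 replicate 1 stands at 18.1 CPM.

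The first comparison is that of the batches, made with the treatment in the model over the 5 siControl and 5 siSbsn libraries. Of the 6 ligands, 5 were lower in batch 2 and none was higher. Of the receptors, *Erbb2* was lower and *Egfr* higher. In all, 7 of 9 members were called by edgeR, that is, their log2-fold change exceeded 0.5 in size at a q-value under 0.05. This stands against a background of 38% of the 13211 loci tested, 16.4% higher and 21.6% lower (60.4% had an unadjusted p under 0.05, and DESeq2 called 38.6%), with a median log2-fold change of -0.02, so the batches differed widely and not in these genes alone. Batch and whatever else differed between the cultures cannot be told apart, and fewer cells of a type and less RNA per cell cannot be told apart in bulk samples.

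*Btc*, betacellulin, a ligand of EGFR and ERBB4, had the largest change of the members. Its level was 11.3 and 9.2 CPM without siRNA, 7.2 and 10.2 CPM in siControl and 10.05 and 9.40 CPM in siSbsn of batch 1. In batch 2 it was 1.3, 1.8 and 1.5 CPM in siControl and 1.5, 2.5 and 1.9 CPM in siSbsn. Every batch 2 library was thus below every batch 1 library, whatever the treatment. The log2-fold change was -2.42 (SE 0.17, q-value = 4.01e-06), a level 5.36-fold higher in batch 1, and 1.72% of the loci tested changed by more.

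*Areg*, amphiregulin, a ligand with a heparin-binding tail that keratinocytes make for themselves, was measured at 13.0 and 11.3 CPM without siRNA, 17.8 and 11.8 CPM in siControl and 13.4 and 11.5 CPM in siSbsn of batch 1. Batch 2 held 4.7, 4.6 and 7.1 CPM in siControl and 4.2, 4.9 and 4.3 CPM in siSbsn. The highest batch 2 library, siControl replicate 3, remained below the lowest of batch 1. The log2-fold change was -1.47 (SE 0.15, q-value = 4.77e-05), and -1.08 with the length trend removed.

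*Hbegf*, on chromosome 18, encodes the heparin-binding EGF-like growth factor, which is shed at wound edges. It stood at 36.4 and 41.3 CPM without siRNA, 37.8 and 51.9 CPM in siControl and 31.9 and 34.7 CPM in siSbsn of batch 1. In batch 2 the levels were 15.2, 17.2 and 18.3 CPM in siControl and 13.8, 16.1 and 14.6 CPM in siSbsn. No library of one batch came within the range of the other. The log2-fold change was -1.29 (SE 0.11, q-value = 1.28e-05).

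*Tgfa*, transforming growth factor alpha, the ligand whose loss gives mice wavy hair, was at 112.8 and 91.2 CPM without siRNA, 47.6 and 79.9 CPM in siControl and 115.1 and 94.9 CPM in siSbsn of batch 1. The batch 2 libraries were close together, at 35.5, 37.9 and 31.8 CPM in siControl and 38.2, 36.2 and 37.1 CPM in siSbsn. The log2-fold change was -1.19 (SE 0.16, q-value = 0.000249). Batch 1 spread far more than batch 2 here, and siControl replicate 1 of batch 1 was its lowest library.

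*Ereg*, epiregulin, a ligand of EGFR and ERBB4, with the transcript counted beside it, stood at 51.0 and 67.4 CPM without siRNA, 32.9 and 62.4 CPM in siControl and 43.2 and 53.5 CPM in siSbsn of batch 1. It was 22.5, 27.5 and 24.2 CPM in siControl and 21.9, 25.3 and 22.2 CPM in siSbsn of batch 2. The batches did not overlap. The log2-fold change was -1.01 (SE 0.16, q-value = 0.000513).

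*Epgn*, epigen, a ligand of low affinity for EGFR, was the exception among the ligands. It measured 67.4 and 91.9 CPM without siRNA, 72.3 and 99.0 CPM in siControl and 72.7 and 75.4 CPM in siSbsn of batch 1, against 68.0, 75.1 and 82.7 CPM in siControl and 62.7, 69.8 and 68.4 CPM in siSbsn of batch 2. The batches overlapped, and the log2-fold change of -0.17 (SE 0.097, q-value = 0.158) did not pass the test and turned to 0.07 with the length trend removed. With single libraries left out, *Epgn* ranged from -0.234 to -0.0552. Its edgeR q-value then reached 0.0313 at the lowest, and the fold threshold was never passed. Its neighbours *Ereg*, *Areg* and *Btc* on chromosome 5 did pass, at -1.01, -1.47 and -2.42. Whether the changes of the neighbours differ from each other was not tested.

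The makeup of the ligand transcripts therefore differed between the batches. Summed per length, the 6 ligands came to 89.1 to 119 CPM per kb in batch 1 and 58.0 to 72.4 CPM per kb in batch 2. *Epgn* made up 37.7% to 47.2% of that sum in batch 1 and 61.4% to 64.9% in batch 2. The share of *Tgfa* was 11.8% to 25.0% in batch 1 and 9.70% to 14.5% in batch 2, and that of *Btc* was 1.99% to 2.76% and 0.507% to 0.964%. The ranges of the *Tgfa* share overlap, and those of *Epgn* and *Btc* do not.

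**Figure D2:**
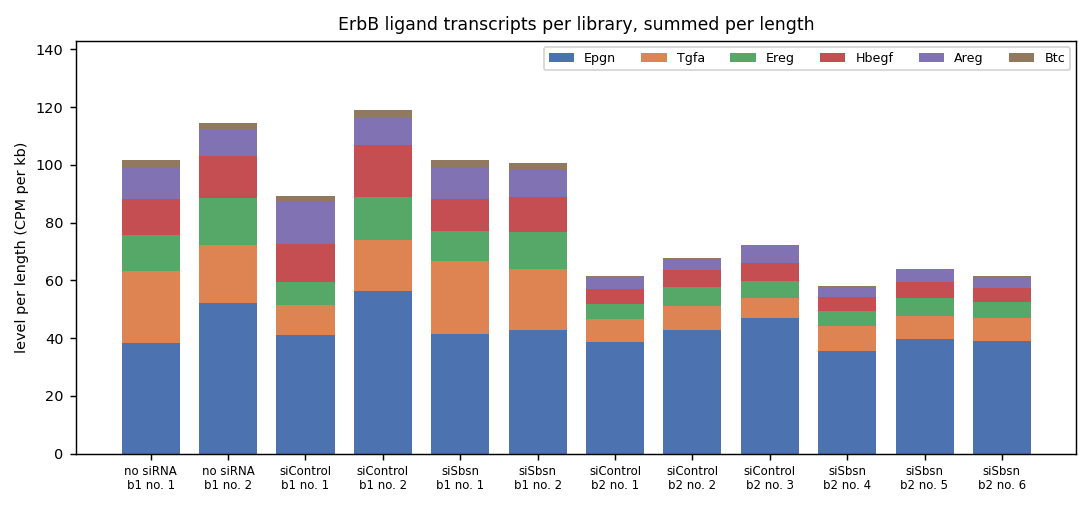
Level per length (vertical axis, CPM per kb of the longest transcript) of the 6 ligands, stacked for each of 12 libraries (b batch, no. replicate number). The *Epgn* segment at the base is 35.6 to 56.2 CPM per kb, and the summed height is 89.1 to 119 CPM per kb in batch 1 and 58.0 to 72.4 CPM per kb in batch 2.

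Of the receptors, *Erbb2* with its joined neighbour was measured at 263.2 and 206.9 CPM without siRNA, 243.9 and 206.1 CPM in siControl and 277.1 and 255.2 CPM in siSbsn of batch 1. In batch 2 it was 162.4, 156.4 and 158.2 CPM in siControl and 167.5, 152.3 and 163.7 CPM in siSbsn. All batch 2 libraries were lower, and the log2-fold change was -0.62 (SE 0.081, q-value = 0.000196).

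*Egfr* moved the other way. Batch 1 held 325.3 and 458.6 CPM without siRNA, 174.7 and 308.5 CPM in siControl and 280.3 and 446.5 CPM in siSbsn, and batch 2 held 454.8, 540.7 and 349.7 CPM in siControl and 543.9, 517.9 and 551.2 CPM in siSbsn. The batches overlapped. The log2-fold change was 0.73 (SE 0.19, q-value = 0.0100). The call was lost with the length trend removed (0.18, q-value = 0.0697) and, through the fold threshold, without the 2 doubted libraries (0.41).

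*Erbb3* was at 130.9 and 163.5 CPM without siRNA, 18.1 and 97.4 CPM in siControl and 119.3 and 160.2 CPM in siSbsn of batch 1. In batch 2 the siControl libraries gave 126.5, 128.2 and 83.9 CPM and the siSbsn libraries 134.4, 111.7 and 131.8 CPM. The log2-fold change of 0.38 (SE 0.40, q-value = 0.428) did not pass the test and was -0.07 without the 2 doubted libraries.

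In all, 6 members (*Erbb2*, *Areg*, *Hbegf*, *Ereg*, *Tgfa* and *Btc*) were lower in every batch 2 library than in any batch 1 library, which held for 16.4% of all loci, and 0 members were higher in every one, which held for 13.9%. Summed markers of some cell types did not overlap between the batches: those of melanocytes (7 of 7 at or above a mean of 1 CPM) summed to 742 to 930 CPM in batch 1 and 1029 to 1091 CPM in batch 2, those of immune cells (3 of 8 in batch 1 and 1 of 8 in batch 2) to 4.90 to 14.1 and 2.37 to 3.30 CPM, and those of suprabasal keratinocytes (7 of 7) to 435 to 1123 and 332 to 377 CPM. Those of muscle (1 of 4) did not overlap either, at 2.40 to 5.51 and 1.24 to 1.90 CPM. Those of fibroblasts (6 of 7) gave 418 to 1170 and 361 to 425 CPM, and those of basal keratinocytes 22760 to 48277 and 18121 to 23258 CPM, and both of these overlapped. The members of the fibroblast and basal lists did not move as 1. *Krt5* (-0.92), *Krt14* (-0.84) and *Col1a1* (-0.75) were called lower, and 5 of 7 basal markers had values above 0. *Dcn* (1.17) and *Lum* (0.51) were called higher, the latter at only 0.37 to 0.90 CPM. Nor did the suprabasal markers, of which 3 were called lower and 1 higher, with log2-fold changes from -2.31 to 0.998. The part of all these markers in the changes of the members was not tested.

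**Figure D3:**
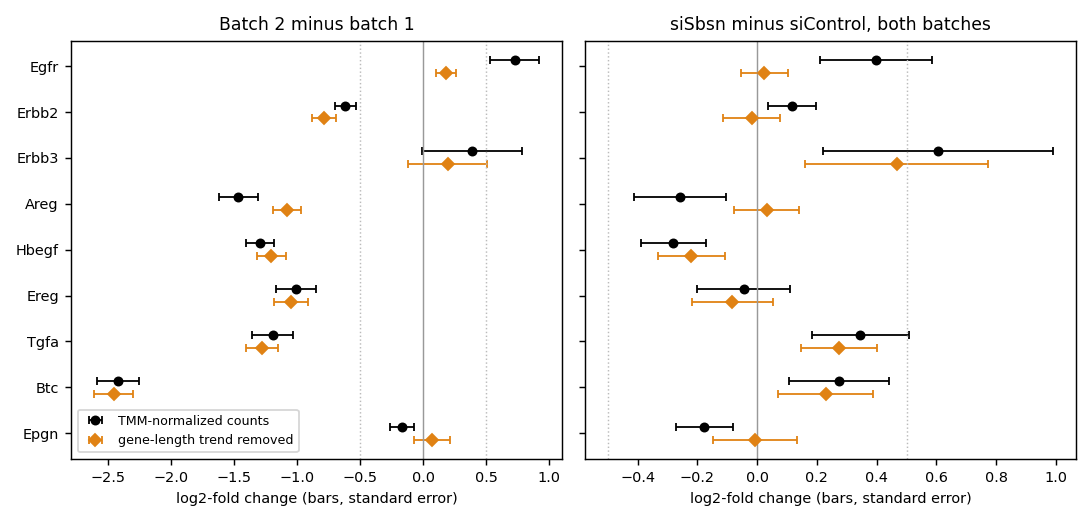
Log2-fold change (horizontal axes, bars are standard errors) of the 9 members for batch 2 minus batch 1 (left) and siSbsn minus siControl over both batches (right), from counts normalized with TMM (black circles) and with the gene-length trend removed (orange diamonds). Dotted lines mark 0.5 in each direction. The axes differ in scale, *Btc* reaches -2.42 between batches, and no member lies beyond 0.61 in either direction between treatments.

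The machinery around the receptors was described by lists of genes. Of the 9 genes for release of the ligands from the membrane, 6 were lower in batch 2 and none was higher, among them *Adam15*, a membrane metalloprotease counted together with *Efna4* (-1.47), *Timp3*, an inhibitor of such proteases counted together with *Syn3* (-1.13), and *Rhbdf1*, which helps to mature ADAM17 (-0.63). These counts are read against the 16.4% of all loci called higher and the 21.6% called lower. The list median was -0.53, and 4 remained called without the 2 doubted libraries. *Adam17*, the main protease of ligand release, had a log2-fold change of -0.32 (q-value = 0.0253) and missed the fold threshold; it was named after its value was seen. Of the 9 genes that restrain the receptors, 3 were higher, including *Socs4* (0.97) and *Lrig3* (0.55), and none was lower, with a list median of 0.28. The calls in either direction in this list, in the signal relay and among the ERK-responsive genes make up a share below the 38% of all loci. Of the 25 genes of the signal relay, 4 were higher and 4 lower, with a list median of -0.05 and 12 values above 0 and 13 below. The 3 with the smallest p, named for that reason, were among the lower ones: the kinases *Mapk3* (-1.10), *Map2k2* (-0.91) and *Map2k1* (-0.68). With the length trend removed this relay count became 1 higher and 6 lower, and without the 2 doubted libraries 0 higher and 3 lower, the 3 being these kinases. Of the 18 ERK-responsive genes, 2 were higher and 3 lower, with *Dusp5*, an ERK phosphatase, at -1.05 and *Phlda1* at -0.64 against *Myc* at 0.71. With the length trend removed the count was 1 higher and 1 lower, *Myc* and *Dusp5*. Of the 5 other receptors and ligands tested, *Nrg1* (0.80) and *Erbb4* (1.91, from 1 to 14 counts per library) were higher and *Nrg2* (-0.76) was lower.

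The second comparison asks whether the siRNA against *Sbsn* moved the family, with the batch in the model. None of the 9 members passed the test. edgeR called 0 of 9 members and 0 of 13211 loci (0%), limma-voom called 0 members, and DESeq2, the tool of the study, called 0 members and 0.772% of its loci. *Sbsn*, the target of the siRNA, was not called by edgeR over both batches either, at a log2-fold change of -0.96. Its values within the batches were 0.03 in batch 1 and -1.64 in batch 2. A missing call in this fit therefore does not show that a gene was unchanged. At an unadjusted p under 0.05 edgeR had 1 member, *Hbegf*, and 18.9% of all loci. The 3 receptors had log2-fold changes above 0 and 4 of the 6 ligands had changes below 0, with list medians of 0.40 and -0.11 against 0.01 over all loci.

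*Hbegf* had the smallest p of the members. Its log2-fold change was -0.28 (SE 0.11, edgeR q-value = 0.258). Permuting the treatment labels inside each batch gave *Hbegf* an exact two-sided p of 0.0333, the smallest attainable being 0.0167. The same permutation gave the other members a p from 0.0667 (*Tgfa*) to 0.95 (*Ereg*), and *Sbsn* itself 0.05. These values were not adjusted for the number of members. *Hbegf* was picked for its small p in the same libraries, so its permutation p is no separate evidence. In batch 1 *Hbegf* was lower in both siSbsn libraries than in both siControl libraries. In batch 2 the groups overlapped, with siSbsn replicate 5 above siControl replicate 1. The within-batch log2-fold changes were -0.46 (SE 0.22) and -0.18 (SE 0.090), and neither passed the test.

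*Erbb3* had a log2-fold change of 0.61 (SE 0.39, q-value = 0.340), and *Egfr* one of 0.40 (SE 0.19, q-value = 0.267). *Tgfa* followed at 0.34 (SE 0.16, q-value = 0.267) and *Btc* at 0.27 (SE 0.17, q-value = 0.327). *Erbb2* gave 0.12 (SE 0.080), *Ereg* -0.04 (SE 0.16), *Epgn* -0.18 (SE 0.096) and *Areg* -0.26 (SE 0.15). With the length trend removed *Egfr* was at 0.02, and *Erbb2* and *Areg* turned to -0.02 and 0.03.

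In batch 2, where *Sbsn* was lowered in all 3 siSbsn libraries, the siControl and siSbsn libraries overlapped for every member, while 9.15% of all loci were higher and 8.97% lower without overlap. The log2-fold changes of the receptors were 0.26 for *Egfr*, 0.03 for *Erbb2* and 0.16 for *Erbb3*. Those of the ligands were -0.27 for *Areg*, -0.18 for *Hbegf*, -0.10 for *Ereg*, 0.09 for *Tgfa*, 0.35 for *Btc* and -0.16 for *Epgn*. The edgeR q-values lay between 0.491 and 0.876, and 0.00774% of all loci, the single locus *Sbsn*, was called (10.2% had an unadjusted p under 0.05, and 0 members did). DESeq2 called 0.096% of its loci and, like limma-voom, 0 members. The lowest *Egfr* and *Erbb3* of batch 2, 349.7 and 83.9 CPM, and its highest *Areg*, 7.1 CPM, were all in siControl replicate 3, which also had the lowest length slope of that batch (-0.047).

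In batch 1 the largest values were those of *Erbb3*, *Tgfa* and *Egfr*, and their standard errors were wider than in batch 2. *Erbb3* had a log2-fold change of 1.26 (SE 0.65, q-value = 0.344), *Tgfa* 0.69 (SE 0.28, q-value = 0.310) and *Egfr* 0.56 (SE 0.35, q-value = 0.399). *Erbb2*, *Erbb3* and *Tgfa* were higher and *Hbegf* lower in both siSbsn libraries than in both siControl libraries, which held for 25.3% and 25.4% of all loci. Summed markers differed without overlap in the same libraries: suprabasal keratinocytes had 435 to 478 CPM in siControl and 591 to 1123 CPM in siSbsn, fibroblasts 418 to 434 and 491 to 1170, melanocytes 742 to 750 and 755 to 930, and immune cells 4.90 to 5.43 and 5.88 to 12.6 CPM. The upper ends in siSbsn were all in replicate 1, the library in which *Sbsn* was not lowered. Without siRNA, replicate 1 also exceeded replicate 2, at 950 against 482 CPM for suprabasal keratinocytes and 935 against 486 CPM for fibroblasts. For melanocytes it was 911 against 771 CPM and for immune cells 14.1 against 4.99 CPM. In siControl, replicate 1 was higher for suprabasal keratinocytes and fibroblasts and lower for melanocytes and immune cells. The part of the replicate number was not tested. Single markers did not all follow the sums. Log2-fold changes above 0 were found for 5 of 7 suprabasal, 5 of 7 fibroblast, 4 of 7 melanocyte and 4 of 4 tested immune markers. The part of these markers in the values of the members was not tested. No member and no locus was called by edgeR (1 member, *Tgfa*, had an unadjusted p under 0.05, beside 15.8% of the loci). DESeq2 called 1.53% of its loci and 0 members, limma-voom called 0 members, and *Egfr* turned to -0.07 with the length trend removed. Without any filter on low counts *Erbb3* alone of the members passed (q-value = 0.00546), where 851 of 18973 loci were called. Without siControl replicate 2, which leaves replicate 1 alone in its group, *Erbb3* was at 2.89 and *Tgfa* at 1.08.

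The 3 members with the largest values in batch 1 all had their lowest level of the batch in siControl replicate 1. *Erbb3* was at 18.1 CPM there and at 97.4 to 163.5 CPM in the other 5 libraries of batch 1, *Egfr* at 174.7 against 280.3 to 458.6 CPM, and *Tgfa* at 47.6 against 79.9 to 115.1 CPM. *Ereg* and *Btc* were lowest in that library too, and *Areg*, which has the shortest transcript of the members at 1215 bases, was highest in it. *Egfr* has the longest transcript at 10208 bases, and *Erbb3* has 6016 and *Tgfa* 4527 bases. Not every member followed its length in this library. *Erbb2*, at 5012 bases, stood there at 243.9 CPM, above siControl replicate 2 at 206.1 CPM. *Epgn*, at 1760 bases, was second lowest of batch 1 there, at 72.3 CPM. With the length trend removed the batch 1 log2-fold change of *Egfr* was -0.07, that of *Erbb3* was 1.04 and that of *Tgfa* was 0.57. What set this library apart was not tested.

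**Figure D4:**
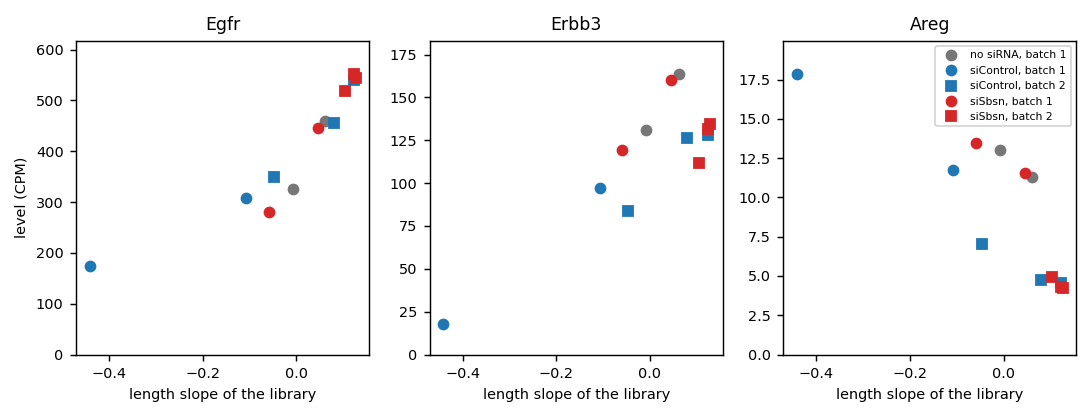
Level in CPM (vertical axes, starting at 0) of *Egfr*, *Erbb3* and *Areg* against the length slope of each of 12 libraries (horizontal axes, change in log2 level per doubling of transcript length, relative to the mean of the libraries). Each point is a library, coloured by treatment, circles for batch 1 and squares for batch 2, and the siControl library at -0.44 has the lowest *Egfr* and *Erbb3* and the highest *Areg* of the 12.

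The difference between batches in the effect of siSbsn was tested as an interaction. No member passed at a q-value under 0.05 in edgeR (0% of 13419 loci, with 14.8% at an unadjusted p under 0.05), and DESeq2, which called 1.70% of its loci, and limma-voom called 0 members as well. The smallest unadjusted p of the members was 0.0495, for *Tgfa*, at a log2 difference of -0.62 (SE 0.28, q-value = 0.337). *Erbb3* gave -1.10 (SE 0.73, q-value = 0.453). Without siControl batch 1 replicate 2, which leaves replicate 1 alone in its group, *Erbb3* was at -2.78, *Tgfa* at -1.05 and *Ereg* at -0.65.

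The libraries without siRNA allow a further comparison within batch 1, of the siRNA procedure itself, which shares its siControl libraries with the one above. In siControl *Egfr*, *Erbb3* and *Tgfa* were lower in both libraries than in both libraries without siRNA, as were 27.4% of all loci, and 0 members were higher in both, as were 26.8%. Summed markers of suprabasal keratinocytes (482 to 950 CPM without siRNA), fibroblasts (486 to 935), melanocytes (771 to 911) and endothelial cells (25.3 to 27.8) lay above both siControl libraries too, and their part was not tested. Single markers did not all follow the sums. Values above 0, that is, higher in siControl, were found for 2 of 7 suprabasal, 2 of 7 fibroblast, 2 of 7 melanocyte and 1 of 4 tested endothelial markers. The log2-fold changes were -0.67 (SE 0.35) for *Egfr*, -1.33 (SE 0.65) for *Erbb3* and -0.65 (SE 0.28) for *Tgfa*, with edgeR q-values of 0.335, 0.322 and 0.308. No member and 0% of the loci passed in edgeR, 0 members had an unadjusted p under 0.05 (16.1% of the loci had one), and DESeq2, which called 0.205% of its loci, and limma-voom called 0 members. *Egfr* turned to 0.07 with the length trend removed. *Erbb3* passed in edgeR without a filter on low counts (q-value = 0.00455), where 815 of 18973 loci were called. Without siControl replicate 2, which leaves replicate 1 alone in its group, *Erbb3* was at -2.97 and *Tgfa* at -1.04. In siSbsn against no siRNA 0 members and 0% of loci were called, with a smallest member q-value of 1.00 and 0 members at an unadjusted p under 0.05, which 0.175% of the loci had. DESeq2 and limma-voom called 0 members there. The differences of number 1 and number 2 correlated at 0.805 between these groups, and this fit counts such a shared difference as spread. With the replicate number as a block, 254 of 13176 loci and 0 members had an unadjusted p under 0.05. The absence of a call in this comparison therefore carries little weight. *Hbegf* alone was lower in both siSbsn libraries than in both libraries without siRNA, as were 8.72% of the loci, and 0 members were higher in both, as were 8.21%.

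In the lists around the receptors edgeR called 0 genes for siSbsn against siControl over both batches. DESeq2 called 4 of the 18 ERK-responsive genes, all lower, namely *Etv4*, *Phlda1*, *Ier3* and *Fosl1*, the last counted together with *Ccdc85b* and named after its value was seen. It called 0 genes in the other 4 lists, and 0.772% of all its loci. By edgeR, those with the smallest p in each list were *Etv4* (-0.57), *Phlda1* (-0.67) and *Ier3* (-0.65) of the ERK-responsive genes, *Gab1* (0.31), *Plcg1* (0.39) and *Akt2* (0.23) of the relay, *Timp3* (0.54) and *Adam10* (0.34) of ligand release, and *Lrig3* (0.29) of the restraints. Their edgeR q-values were 0.256 to 0.260. At an unadjusted p under 0.05 there were 5 of 18 ERK-responsive genes, all with values below 0, and 7 of 25 relay genes, 6 of them above 0, beside 18.9% of all loci. The lists were chosen with earlier results of these data known, so these counts are not an independent test. In batch 1 *Fosl1* (0.86), *Phlda1* (0.69) and *Ier3* (0.68) were higher in siControl than without siRNA, and edgeR called none of them. For siSbsn against siControl in batch 2 edgeR called 0 ERK-responsive genes. There 5 of 17 tested had an unadjusted p under 0.05, all with values below 0, beside 10.2% of all loci. Among them were *Etv4* (-0.37), *Phlda1* (-0.39) and *Fosl1* (-0.28), with edgeR q-values of 0.319 to 0.358. Against no siRNA in batch 1, siSbsn had 16 of 17 values below 0 and 1 above, with 0 at an unadjusted p under 0.05.

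Loci whose levels followed those of a member most closely were sought by the Pearson correlation of log2 CPM over the 12 libraries after the batch means were subtracted. This is a description, since the libraries share the length trend and siControl batch 1 replicate 1 stands far from the others for some members. *Erbb3*, for example, was at 18.1 CPM there and at 83.9 CPM or more in every other library. No correlation was computed without that library. The closest to *Egfr* was *Qser1* (r = 0.997) and the closest to *Erbb3* was *L3mbtl3* (r = 0.998). The closest to *Tgfa* was *Ammecr1*, counted together with AK018092 (r = 0.996). *Hbegf* was followed most closely by *Cyr61* (r = 0.979) and *Ereg* by *Etv5* (r = 0.974). For *Erbb2* the closest was *Tmem139* (r = 0.973), for *Areg* *Pla2g2e* (r = 0.950) and for *Btc* *Mal2* (r = 0.908). For *Epgn* it was *Gabpb1*, counted together with AK034775 (r = 0.950).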

How the data were processed

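RNA-Seq counts of 12 libraries were analysed. Per the study's methods, the authors aligned reads to mm10 with STAR 2.5.1b, kept uniquely aligned reads and counted them on UCSC KnownGene genes. The deposited values are whole-number counts, not normalized. Overlapping genes were joined into 1 locus, and the strand setting of the counting is not stated in the sources used.

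For each comparison, edgeR 4.0.16 (R 4.3.3) was run on all loci left by its low-count filter, with TMM scaling, its quasi-likelihood test and Benjamini-Hochberg adjusted q-values. DESeq2 1.42.0 and limma-voom (limma 3.58.1) were alternatives. Calls needed an absolute log2-fold change over 0.5 and q under 0.05, the interaction q alone. Standard errors are the log2-fold change over the square root of F. CPM used TMM library sizes, log2 values added 0.5, and lengths came from the longest GENCODE transcript of mm10. The length trend was removed by lowess offsets (span 0.3). Replicates were compared by chi-square, and all differed beyond sampling noise.

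The members and lists were chosen with earlier results of these data known. The text names the members, *Sbsn*, the other family genes, up to 3 genes per list by p, and the nearest locus to each member, the first of 2 found. The script steps were tested on simulated data.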

Additional observations from a re-analysis of the deposited data

How the results depend on the processing

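Between batches, 7 members were called by edgeR, DESeq2 and limma-voom and with any single library left out. It was 6, without *Egfr*, once the length trend was removed (0.18) or siControl batch 1 replicate 1 and siSbsn batch 1 replicate 1 were left out (0.41), a removal chosen after seeing the data. For siSbsn against siControl over both batches and in batch 2, no member was called under any alternative.

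Removing the length trend turned *Epgn* between batches to 0.071, *Erbb2* and *Areg* over both batches to -0.019 and 0.032, *Erbb2* in batch 2 to -0.021, and *Egfr* in batch 1 to -0.075 against siControl and to 0.066 for siControl against no siRNA. Without the 2 libraries *Erbb3* between batches was -0.070. With single libraries left out, *Erbb3* between batches ranged from -0.0015 to 0.66 and *Ereg* over both batches from -0.18 to 0.11. In batch 2, *Erbb2* ranged from -0.0036 to 0.063, *Erbb3* from -0.020 to 0.28 and *Ereg* from -0.16 to 0.0037.

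Counts of all called loci moved more. For siSbsn against siControl over both batches (0 loci) DESeq2 called 98 and the fit without the 2 libraries 1. In batch 1 (0 loci) there were 851 without a filter on low counts, 174 with DESeq2 and 1294 when all 12 libraries were fitted as 5 groups, and in batch 2 (1 locus) 9, 10 and 0, with 6 once the length trend was removed. For siControl against no siRNA (0 loci) there were 815 without a filter and 26 with DESeq2, and for the interaction (0 loci) 17, 206 and, without the 2 libraries, 17. Without a filter 1 member, *Erbb3*, was called in batch 1 for siSbsn against siControl and for siControl against no siRNA (edgeR q-value = 0.00546 and 0.00455). With single libraries left out, the calls ranged from 0 to 2618 loci and 0 to 2 members in batch 1, from 1 to 10 loci in batch 2, from 0 to 3213 loci and 0 to 2 members for siControl against no siRNA, and from 0 to 4775 loci and 0 to 3 members for the interaction. The highest values came without siControl batch 1 replicate 2, which leaves replicate 1 alone in its group, assumed to vary like the other groups, and the members called were *Erbb3* and *Tgfa*, with *Ereg* in the interaction. In batch 2 the highest came without siControl replicate 3, and the interaction had 411 loci without siSbsn batch 1 replicate 2. The cause was not tested.

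With the replicate number of batch 1 as a block (replicate block), edgeR called 0 loci over both batches and 5269 between batches, and no call of a member changed. Within batch 1 the differences of number 1 and number 2 correlated at 0.379 to 0.805 between conditions, but the labels give only a shared number. Per length, using the union of exons gave *Hbegf* 8.07 and 3.28 and *Tgfa* 13.9 and 5.56 CPM per kb in the batches, and *Erbb2* 30.7 in batch 2, which moved *Hbegf* below *Areg* in both batches. At 47 to 77 counts per batch 2 library, *Btc* has the least depth of the members.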
